A study of Mus musculus with 6 samples.

Results

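The 8 genes of secreted proteins that pigment epithelium and glia are known for, Ptgds, Ttr, Enpp2, Cst3, Serpinf1, Rbp4, Timp3 and Efemp1, were followed across the cell types of the mouse retina and in both Dram2 genotypes. They were chosen by name, without a threshold on their values, and all 8 were found among the 52636 genes of the count table. The single-cell libraries came from retinas of male C57BL/6J mice of 12 months, 3 Dram2 wt/wt and 3 Dram2 ko/ko, and ko/ko stands for a constitutive CRISPR/Cas9 deletion of exon 4 in every cell. All 6 retinas shared strain, sex, age and tissue, and none received a treatment. Replicate 3 of each genotype belonged to batch 1 and replicates 1 and 2 to batch 2. The labels number the retinas and name no animal, so the p-values below measure the spread between these samples.

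The retinal pigment epithelium (RPE) is a pigmented sheet behind the photoreceptors that recycles their chromophore, and it secretes carriers, enzymes and protease inhibitors toward both the photoreceptors and the choroid. Müller glia span the neural retina and secrete proteins into its matrix as well. In droplet sequencing, RNA from broken cells enters every droplet, so an abundant secreted-protein gene of a fragile cell type also gives molecules in cells that do not make it, and each level outside the RPE was therefore set beside that background.

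The retinas gave 7014 to 9242 cells and 3463728 to 6563762 UMIs (unique molecular identifiers, 1 per captured RNA molecule) each, with a median of 406 to 609 UMIs per cell. Of 46375 cells, 45746 carried 1 of the 5 types of the study: 116 RPE cells, 942 glia, 246 mesenchymal cells, 2083 interneurons and 42359 photoreceptors. Only 10 to 25 RPE cells were present per retina (25, 25 and 23 in wt/wt and 17, 16 and 10 in ko/ko), which is 0.254% of the typed cells and 0.540% of all UMIs. The RPE label was set beside its markers: all 11 of the RPE list had UMIs, and the list summed to 22242 to 29812 CPM per retina (UMIs per 1000000 UMIs of the cells of that type). Pooled over retinas it was 26225 CPM in RPE cells, 413 in glia, 239 in mesenchymal cells, 30.1 in photoreceptors and 26.0 in interneurons. Photoreceptors also had UMIs of all 11 genes. The types were clustered on these same counts, so the levels describe the label and do not test it. Molecules of rods were present in RPE cells as well (3904 to 8758 CPM over the 6 rod markers). So were those of the Müller glia list, at 17599 to 27372 CPM in RPE cells against 48190 to 61569 CPM in glia. In RPE cells 6 of its 7 genes had UMIs, all but Slc1a3. Some of these genes, such as Rlbp1 and Apoe, are also used by the RPE. How much of this sum was RNA of Müller glia was not tested. All 5 fibroblast markers were at 0 in RPE cells. The mesenchymal class held no cell led by fibroblast markers, but 117 led by endothelial, 85 by microglia and 28 by pericyte markers. The targeted gene, Dram2, was counted at 109, 140 and 317 UMIs per wt/wt retina and 95, 149 and 351 per ko/ko retina, or 27.8, 34.8 and 56.0 against 27.4, 34.0 and 53.5 CPM of all cells, values that overlapped. The kit tags the 3′ end of a transcript, outside the deleted part, so these counts do not check the genotype labels.

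Transthyretin and retinol-binding protein 4, the products of Ttr and Rbp4, carry retinol in blood, and the RPE is the ocular source of transthyretin. Ttr was the most abundant transcript of RPE cells among 11581 genes with a UMI. In wt/wt retinas its level in RPE cells was 76851, 82140 and 72481 CPM, and in ko/ko retinas 89092, 98310 and 82528 CPM. Each RPE cell held 5 to 525 Ttr UMIs, with a median of 81.5, and none of the 116 cells was without it. In the 6 retinas the mean level was 83567 ± 9154 CPM (SD, n = 6) in RPE cells, against 79.4 ± 24.2 in photoreceptors, 64.4 ± 36.3 in glia, 62.5 ± 22.4 in interneurons and 47.2 ± 18.9 in mesenchymal cells. The step from RPE cells to photoreceptors was 9.71 on the log2 scale (SE 0.25, edgeR adjusted p = 2.23e-46), while the median gene of that contrast differed by -1.03. Below the RPE no neighbouring pair in the order of Ttr levels differed beyond its spread (edgeR adjusted p = 0.124, 0.664 and 0.667), though with no filter the first step, from photoreceptors to glia, was 0.69 and passed (edgeR adjusted p = 1.39e-05). Further apart in that order, interneurons minus photoreceptors was -0.61 (SE 0.22, edgeR adjusted p = 0.0120). Mesenchymal cells minus photoreceptors was -0.83 (SE 0.38, edgeR adjusted p = 0.0508). RPE cells held 86.1% of all Ttr UMIs and photoreceptors, the most numerous type, 11.1%.

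Rbp4, the partner of transthyretin in plasma, was at the limit of counting in the RPE. A single Rbp4 UMI was counted in RPE cells (6.61 CPM pooled, exact Poisson 95% interval 0.167 to 36.8, which covers counting error only), and none in glia or mesenchymal cells. Of 74 Rbp4 UMIs in all, 57 lay in interneurons. The interneurons of wt/wt retinas held 4, 2 and 29 of them and those of ko/ko retinas 4, 3 and 15, the high counts being those of the batch 1 retinas, which also had the most interneurons. As a level this was 11.5 ± 6.00 CPM (SD, n = 6). Cells led by bipolar markers held 51 of the 57 and those led by amacrine markers 5. After each cell was thinned to 300 UMIs, 0.409% ± 0.163 of interneurons and 0.0126% ± 0.00774 of photoreceptors held an Rbp4 UMI (SD, n = 6), and before thinning 1.81% ± 0.883 and 0.0386% ± 0.0176, at median depths of 1844 and 428 UMIs per cell.

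Ptgds encodes the lipocalin-type prostaglandin D synthase, an enzyme that is secreted and also binds retinoids. It was the second most abundant transcript of RPE cells. The level there was 57620, 59659 and 54993 CPM in wt/wt and 65745, 70272 and 78135 CPM in ko/ko retinas, and every RPE cell held 9 to 252 UMIs (median 65.5). The order of the means was RPE 64404 ± 8739 CPM, glia 200 ± 32.7, interneurons 165 ± 54.0, photoreceptors 65.6 ± 12.0 and mesenchymal cells 34.3 ± 17.2 (SD, n = 6). RPE cells stood 8.08 above glia on the log2 scale (SE 0.23, edgeR adjusted p = 5.32e-43; the median gene of that contrast differed by -0.85). The step from glia to interneurons was 0.43 (SE 0.21, edgeR adjusted p = 0.0721) and passed in 4 of 12 alternatives: limma-voom (limma adjusted p = 0.0455), RLE factors (edgeR adjusted p = 0.0235), stricter cells (0.0487) and without wt/wt replicate 3 (0.63, edgeR adjusted p = 0.0174). Interneurons exceeded photoreceptors by 1.04 (SE 0.19, edgeR adjusted p = 1.51e-06). Photoreceptors exceeded mesenchymal cells by 1.10 (SE 0.41, edgeR adjusted p = 0.0161), a call that was lost without ko/ko replicate 2 (edgeR adjusted p = 0.0555) and kept in 9 of 12 alternatives.

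Enpp2 encodes autotaxin, the secreted enzyme that makes lysophosphatidic acid. RPE cells and glia held most of it. RPE cells showed 1759, 2256 and 2085 CPM in wt/wt and 1878, 2662 and 1581 CPM in ko/ko retinas, and glia 523, 368 and 419 CPM in wt/wt and 342, 530 and 457 CPM in ko/ko. The lowest RPE value was above the highest glial value, and the genotypes overlapped in both types. RPE exceeded glia by 1.98 on the log2 scale (SE 0.15, edgeR adjusted p = 2.35e-19), and glia exceeded mesenchymal cells, at 13 ± 11 CPM (SD, n = 6), by 5.08 (SE 0.33, edgeR adjusted p = 8.40e-23). Interneurons and photoreceptors had 5.93 ± 3.56 and 3.25 ± 0.786 CPM, a difference of 0.95 (SE 0.35, edgeR adjusted p = 0.0133). That call was kept in 8 of 12 alternatives, and was lost, among others, without wt/wt or ko/ko replicate 3 (edgeR adjusted p = 0.132 and 0.138). Because glia were more numerous, they held 62.2% of the Enpp2 UMIs and RPE cells 28.0%. Of the glia, 44.5% ± 5.40 per retina held an Enpp2 UMI, against 0.162% ± 0.0430 of photoreceptors, with median depths of 1683 and 428 UMIs per cell. With 300 UMIs per cell these shares were 11.5% ± 2.13 and 0.0917% ± 0.0219, and that of RPE cells 46.9% ± 8.57.

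Cst3, Timp3 and Serpinf1 encode inhibitors or relatives of inhibitors: cystatin C blocks cysteine cathepsins, tissue inhibitor of metalloproteinases 3 blocks matrix metalloproteinases and sits in Bruch's membrane, and pigment epithelium-derived factor is a serpin that does not act as a protease inhibitor. Cst3 was the member found at a high level in the most types. Its level in RPE cells was 23235, 28007 and 24466 CPM in wt/wt and 27237, 29546 and 33562 CPM in ko/ko retinas, and by UMIs it took rank 3 there, rank 2 in mesenchymal cells, rank 14 in photoreceptors and rank 23 in glia. The means over retinas were 27676 ± 3700 CPM in RPE cells, 16159 ± 7427 in mesenchymal cells, 3496 ± 757 in photoreceptors, 2171 ± 595 in glia and 793 ± 119 in interneurons (SD, n = 6). RPE exceeded mesenchymal cells by only 0.53 on the log2 scale (SE 0.21, edgeR adjusted p = 0.0427), and with the wt/wt retinas alone that difference was -0.00339. Without wt/wt replicate 2 or any of the 3 ko/ko retinas it was 0.38 to 0.53 and no longer passed (edgeR adjusted p = 0.0585 to 0.201). The next steps down were 2.04 (SE 0.22), 0.84 (SE 0.21) and 1.59 (SE 0.22), with edgeR adjusted p-values of 3.66e-13, 0.000359 and 2.54e-09. Without the cells of the highest doublet scores, the step from photoreceptors to glia was 1.69 and that from glia to interneurons 0.87, both still past the threshold. Photoreceptors, by their number, held 78.2% of all Cst3 UMIs.

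The mesenchymal level of Cst3 came from 1 kind of cell in that class. The 85 cells led by microglia markers held 8082 of its 8755 Cst3 UMIs, at 47878 CPM, against 1803 CPM in the 117 cells led by endothelial markers and 2189 CPM in the 28 led by pericyte markers. Among glia, too, few cells carried much of it. The 23 of 942 glia with at least 10 Cst3 UMIs, which were chosen after their values were seen, held 1680 of 3173 UMIs (52.9%, up to 213 in a cell) at 35346 CPM, and the other 919 had 992 CPM. Of these 23 cells, 18 held a UMI of the astrocyte list (Gfap, Pax2, Aldh1l1) and 4 of the microglia list, against 108 and 95 of the other 919. Their Müller list sum was 70.1 UMIs per cell, against 92.7, and 19 of the 23 were among the 5% of cells with the highest doublet scores, against 118 of the other 919. Without all cells of those scores the glial level lay further below photoreceptors and closer to interneurons, by the steps given above.

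Timp3 followed Enpp2 in the RPE and in glia, but reached the mesenchymal class as well. In RPE cells it measured 1796, 1316 and 2947 CPM in wt/wt and 1208, 1508 and 1874 CPM in ko/ko retinas. Glia had 263 ± 40.1 CPM and mesenchymal cells 191 ± 141 CPM, against 3.67 ± 1.09 in photoreceptors and 3.38 ± 4.53 in interneurons (SD, n = 6). RPE exceeded glia by 2.58 on the log2 scale (SE 0.18, edgeR adjusted p = 6.30e-21). Glia and mesenchymal cells did not differ beyond their spread (0.49, SE 0.21, edgeR adjusted p = 0.0567). That difference passed in 4 of 12 alternatives, among them those without wt/wt or ko/ko replicate 3 (edgeR adjusted p = 0.0255 and 0.00175). Mesenchymal cells exceeded photoreceptors by 5.48 (SE 0.31, edgeR adjusted p = 1.25e-26). Within the mesenchymal class, Timp3 and Cst3 had their highest levels in different cells: cells led by pericyte markers had 356 CPM of Timp3, those led by endothelial markers 260 CPM, and the 85 cells led by microglia markers no UMI in 168803, whereas Cst3 was highest in the last and present in the others as well (106 of 117 endothelial-marker and 27 of 28 pericyte-marker cells held a UMI).

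Serpinf1, for which the epithelium is named as a source, had 12 UMIs in the 45746 typed cells. RPE cells held 0 of their 151269 UMIs, which allows a level of up to 19.8 CPM. Mesenchymal cells held 6, all of them in cells led by microglia markers, photoreceptors 5 and glia 1. At 10 to 25 RPE cells per retina, a Serpinf1 level below that limit was not detectable.

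Efemp1 encodes fibulin-3, a glycoprotein of the extracellular matrix that is mutated in an inherited macular drusen disease. It was a glial transcript in these retinas. Glia had 344, 328 and 596 CPM in wt/wt and 436, 392 and 619 CPM in ko/ko, the highest value of each genotype being that of the batch 1 retina. RPE cells held 2 Efemp1 UMIs (13.2 CPM pooled, exact Poisson 95% interval 1.60 to 47.8), and 88.2% of all Efemp1 UMIs were in glia. Glia exceeded RPE cells by 5.30 on the log2 scale (SE 0.52, edgeR adjusted p = 6.22e-14), the median gene of that contrast being higher in glia by 0.85. The other types, at 2.84 to 3.52 CPM, and RPE cells did not differ from their neighbours in order (edgeR adjusted p = 0.332, 0.976 and 0.892), but with limma-voom all 3 steps passed, at 2.67, -0.92 and 1.57 (limma-voom adjusted p = 6.26e-08, 0.0290 and 0.000829), the signs of the last 2 being opposite to those in edgeR. Among glia, 45.6% ± 11.1 held an Efemp1 UMI, against 0.179% ± 0.0662 of photoreceptors, and with 300 UMIs per cell 11.9% ± 3.50 against 0.101% ± 0.0295 (SD, n = 6).

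**Figure D1:**
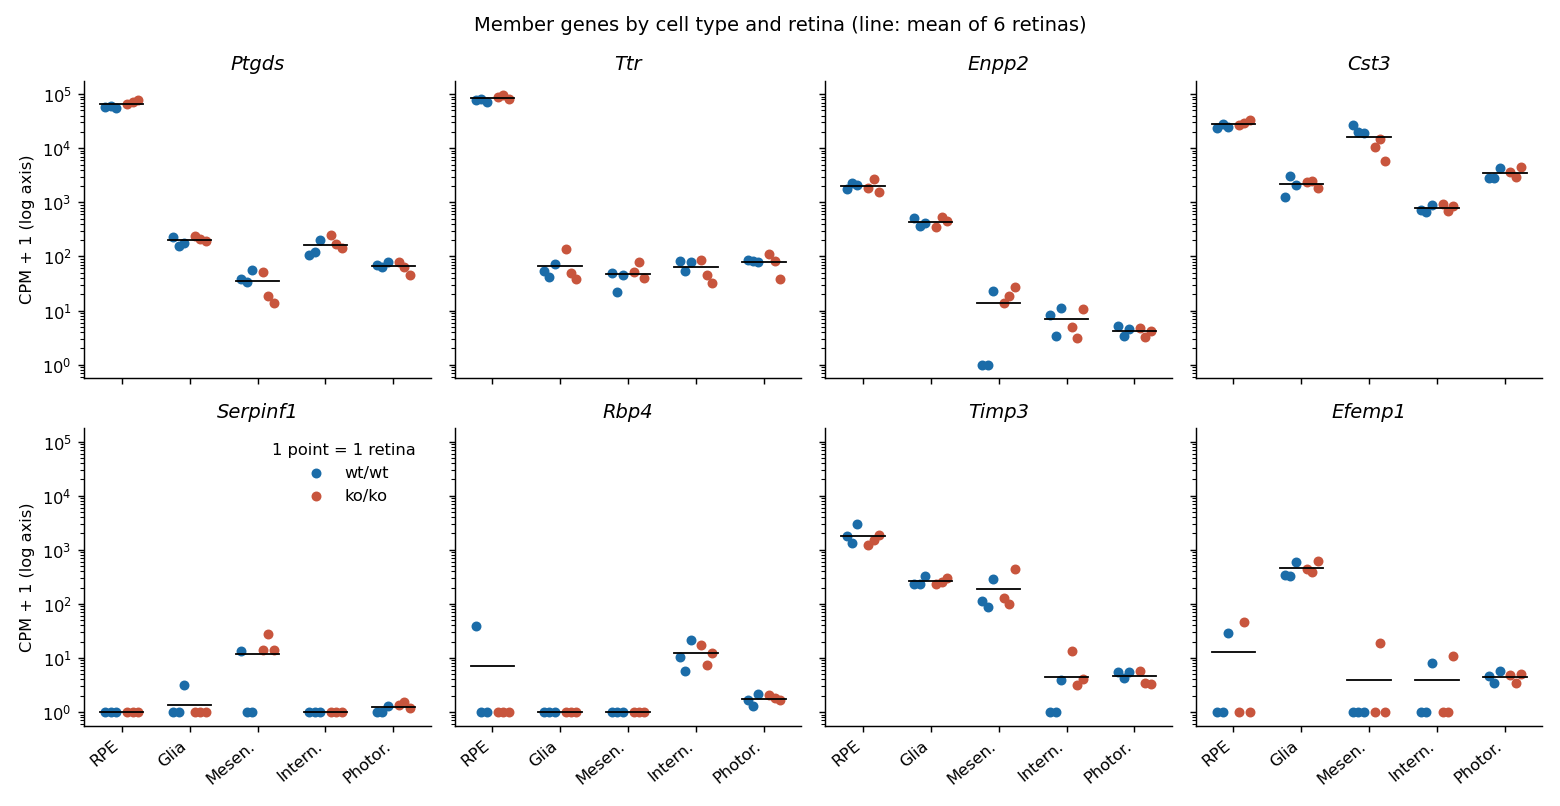
Level of each of the 8 genes in the 5 cell types, as CPM + 1 on a log axis, with 1 point for each of the 3 wt/wt and 3 ko/ko retinas and a line at the mean of 6. Ttr and Ptgds stand at 54993 CPM or more in RPE cells and at 252 CPM or less in the other types, Cst3 is high in RPE and mesenchymal cells, and Efemp1 is high in glia.

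The 6 members that entered the test between types (all but Serpinf1 and Rbp4) can be read against all genes. Of the 6290 genes tested, edgeR called 38.6% between RPE and glia, 38.9% between RPE and mesenchymal cells, 46% between RPE and interneurons and 51.3% between RPE and photoreceptors. The shares were 44.8%, 59.3% and 69% between glia and mesenchymal cells, interneurons and photoreceptors, 57.4% and 64.2% between mesenchymal cells and interneurons and photoreceptors, and 66% between interneurons and photoreceptors. Cells were assigned to types by clustering on these counts, and the p-values are therefore no independent evidence for a type. The 8 genes together made up 15.7% to 20.2% of the UMIs of RPE cells (17.9% ± 1.88, SD, n = 6).

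Promoter windows of 3 members with different cell type patterns are shown: Ptgds, which was highest in the RPE, Timp3, which was found in RPE, glia and vascular cells, and Efemp1, found in glia. They are taken from RefSeq on GRCm38.p6, which held windows for 6 of the 8 genes, and are shown without the bases that GENCODE places in an exon. Those of Timp3 and Efemp1 end before the first exon, whereas that of Ptgds lies in an intron of the longest annotated Ptgds transcript, upstream of its other annotated starts. The Ptgds window is chr2:25469843-25469999 on the minus strand (157 bases), that of Timp3 chr10:86300162-86300371 on the plus strand (210 bases), and that of Efemp1 chr11:28852955-28853203 on the plus strand (249 bases). Capitals mark a GC box read on the other strand, CCGCCC.
Ptgds: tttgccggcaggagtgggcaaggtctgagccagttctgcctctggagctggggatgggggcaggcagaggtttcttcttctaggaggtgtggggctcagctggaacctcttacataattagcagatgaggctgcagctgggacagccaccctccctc
Timp3: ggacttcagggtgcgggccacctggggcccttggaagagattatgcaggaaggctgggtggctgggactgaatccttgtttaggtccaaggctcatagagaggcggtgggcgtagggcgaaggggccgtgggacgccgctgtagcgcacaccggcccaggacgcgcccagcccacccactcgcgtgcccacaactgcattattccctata
Efemp1: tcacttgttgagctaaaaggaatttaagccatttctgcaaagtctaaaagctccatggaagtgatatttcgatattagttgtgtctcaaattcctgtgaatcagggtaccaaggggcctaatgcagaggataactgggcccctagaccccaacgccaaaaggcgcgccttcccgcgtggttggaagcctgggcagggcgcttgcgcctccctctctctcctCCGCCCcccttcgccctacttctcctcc
In full windows of 250 bases before the start, on both strands, none of the 6 members with a window held the OTX2 and CRX core TAATCC or the E-box CACGTG. Of 27025 promoters, 6.38% and 6.05% held them, so their absence from 6 genes is no trait of the members. The M-box CATGTG, in 12.2% of promoters, was in the Serpinf1 window. The GC box GGGCGG, in 32.9% of promoters, was in the windows of Cst3, Timp3, Efemp1 and Rbp4. A match is a description of letters and not a site. The genes span chr2:25466709-25470046 (Ptgds), chr15:54838901-54952892 (Enpp2), chr2:148871722-148875692 (Cst3), chr11:75409769-75422701 (Serpinf1), chr19:38116629-38125281 (Rbp4), chr10:86300372-86349506 (Timp3) and chr11:28853204-28926743 (Efemp1) in GRCm38, all protein-coding.

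How much of each gene's RNA outside the RPE exceeded free RNA was measured against RPE reference genes. If a cell type held a member only as RNA of RPE cells, the member would stand to the reference in the ratio found in RPE cells of the same retina. The list of 5 reference genes (Rpe65, Lrat, Rrh, Stra6, Slc16a8) was not specific to the RPE in these retinas: glia held 524 UMIs of Rrh against 34 in RPE cells, and mesenchymal cells 123 UMIs of Stra6 against 85. With these 5 genes the expected level was therefore high in glia and mesenchymal cells, and Ttr and Ptgds lay below it there in all 6 retinas (Ptgds in glia 324 UMIs per 1000 cells against 5034 expected, Ttr 103 against 6397). A list without Rrh and Stra6, which was chosen after these counts were seen, left 5 reference UMIs in glia, 1 in mesenchymal cells, 23 in interneurons and 97 in photoreceptors, so its expected levels in glia and mesenchymal cells rest on very few molecules. With 32 tests and 6 retinas the smallest p of the two-sided exact sign-flip permutation test is 0.03125, the smallest adjusted p reached was 0.0526 with the 5 genes and 0.0625 with the 3, and so none of the 32 passed 0.05. The counts of retinas and the sizes are given instead.

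Taken over all retinas, Ttr in other cells was close to a level shared by cells of like depth, with a wide spread between retinas. Per 1000 cells, glia held 101 Ttr UMIs (66.7 to 196 over retinas), mesenchymal cells 106 (40.8 to 180) and interneurons 120 (76.1 to 184). The 891 photoreceptors led by cone markers held 103 (43.5 to 137). Median depths were 1683, 1905, 1844 and 1872 UMIs per cell, in this order. The other photoreceptors, the rods, held 36.5 at a depth of 422. Against the cone level, which was added as a background after the depths were seen, Ttr in glia, mesenchymal cells and interneurons was 0.997, 1.02 and 1.12 times as high (two-sided exact sign-flip permutation p = 1, 0.938 and 0.438 over 6 retinas). With 3 reference genes the observed and expected levels were 103 and 60.1 in glia, 115 and 153 in interneurons and 38.7 and 34.1 in photoreceptors.

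Ptgds departed from this shared level in glia and interneurons. It had 324 UMIs per 1000 cells in glia and 310 in interneurons, against 101 in cones (means of 6 retinas), and was above the cone level in 6 of 6 retinas in both types, by 224 ± 66.8 and 210 ± 88.5 (SD; two-sided exact sign-flip permutation p = 0.03125, the smallest possible, and 0.0938 after adjustment over 24 tests). In mesenchymal cells the level was 74.3, and 2 of 6 retinas were above the cones. With 3 reference genes the mean expected levels in glia and interneurons were 47.3 and 118, the first from 5 reference UMIs in all. The ratio of the 2 most abundant RPE transcripts moved with it. RPE cells held 0.762 Ptgds UMIs per Ttr UMI (0.715 to 0.947 over retinas), mesenchymal cells 0.692 (0.222 to 1.5), photoreceptors 0.844 (0.689 to 1.21) and cones 1.01 (0.294 to 2.83), whereas glia held 3.20 (1.80 to 5.07) and interneurons 2.80 (1.32 to 4.63). The lowest retina of glia and of interneurons was above the highest RPE and photoreceptor values, while the range of the cones overlapped both. Among interneurons, cells led by amacrine markers had 609 Ptgds UMIs per 1000 cells and 195 CPM, and those led by bipolar markers 270 and 144 CPM, with median depths of 3131.5 and 1789 UMIs. With 300 UMIs per cell, a Ptgds UMI was found in 5.91% ± 1.17 of glia, 4.99% ± 1.59 of interneurons, 1.91% ± 0.333 of photoreceptors and 0.946% ± 0.395 of mesenchymal cells (before thinning 25.5%, 23.0%, 3.15% and 7.43%), and a Ttr UMI in 1.84%, 1.90%, 2.26% and 1.16%.

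**Figure D2:**
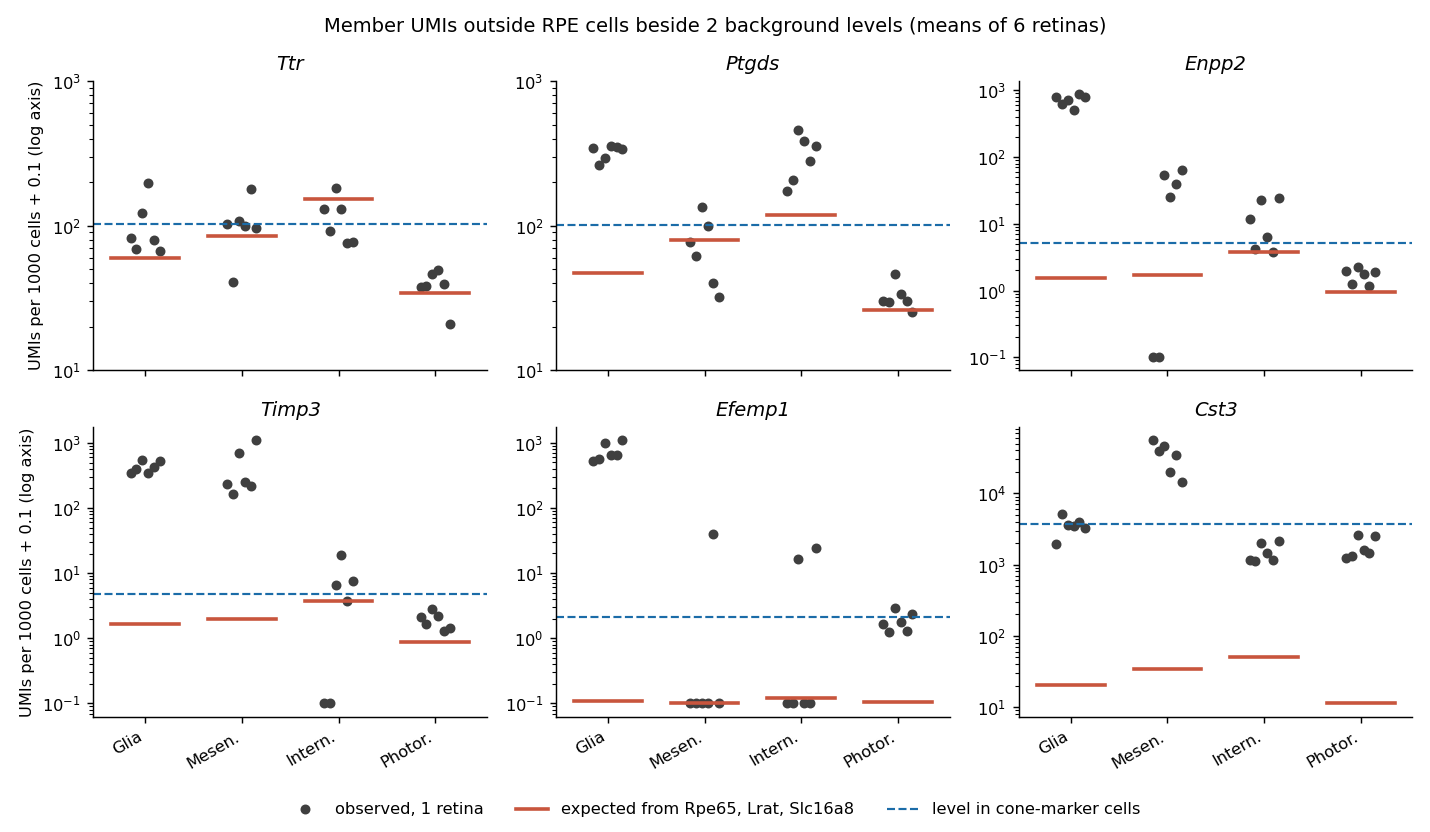
UMIs per 1000 cells (plus 0.1, log axes) of 6 members in the 4 types outside the RPE, with 1 point per retina; a red line marks the mean level expected from Rpe65, Lrat and Slc16a8, which rests on 5 reference UMIs in glia and 1 in mesenchymal cells, and a dashed line the mean level in photoreceptors led by cone markers. The mean of Ttr lies near 100 UMIs per 1000 cells in glia, mesenchymal cells, interneurons and cones, while that of Ptgds reaches 324 in glia and 310 in interneurons.

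The glial levels of Enpp2, Timp3 and Efemp1 were above the cone level in 6 of 6 retinas. Per 1000 glia the observed UMIs were 719, 431 and 744, against 5.09, 4.72 and 2.04 in cones, which held few UMIs of each. Enpp2 and Timp3 in glia were also above the 153 and 147 expected with 5 reference genes in 6 of 6 retinas. For Efemp1, with 2 UMIs in RPE cells, no such expectation could be read. Timp3 in mesenchymal cells was above the cones and above the level expected with 5 reference genes in 6 of 6 retinas, with 444 observed and 139 expected. With the 5 reference genes Cst3 exceeded its expected level in 6 of 6 retinas in mesenchymal cells (34961 against 2288 UMIs per 1000 cells), interneurons (1510 against 87.4) and photoreceptors (1778 against 22.0), and in glia in 4 of 6 (3561 against 2158). That glial expectation includes the Rrh UMIs that made the list unspecific in glia. With the 3 reference genes 20.3 were expected in glia, and Cst3 was above this in 6 of 6 retinas. The 20.3 rest on 5 reference UMIs. Cst3 in glia was near the cone level, with 3561 against 3771 UMIs per 1000 cells, and in interneurons below it in 6 of 6 retinas. The glial value includes the 23 cells above, and the other 919 glia held 1493 Cst3 UMIs. The cones were not cut at 10 Cst3 UMIs per cell, so these 919 glia are not set against them. Photoreceptors themselves held most Cst3 UMIs, and the part of free photoreceptor RNA in these values was not tested. Enpp2 in mesenchymal cells and interneurons, with 30.6 and 12.1 UMIs per 1000 cells, was above the cone level in 4 of 6 retinas in each, and Timp3 in interneurons, with 6.07, in 2 of 6. Rbp4 in interneurons, at 22.5 UMIs per 1000 cells, was above the cone level of 7.28 in 5 of 6.

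With all 6 retinas and no covariate, none of the members tested passed an edgeR adjusted p of 0.05 between Dram2 genotypes in any cell type, and Serpinf1 and Rbp4 had too few counts to be kept for these fits. With the replicate block or the batch as a covariate, Cst3 passed in mesenchymal cells, as given further on. The paper lists as significant Ptgds in RPE cells, higher in ko/ko, and Cst3 in mesenchymal cells and Ttr in interneurons, both lower. Those calls came from limma-voom on cells summed per sample and type, a method unlike the edgeR fit used here. In edgeR each had the same sign, Ttr in interneurons at -0.55 on the log2 scale (SE 0.38), without passing in the fit with no covariate. Over all genes, 0% passed in RPE cells (0 of 308 tested), glia (0 of 4130), mesenchymal cells (0 of 1717), interneurons (0 of 7698), photoreceptors (0 of 13053) and all cells together (0 of 15330), and 11, 51, 150, 86, 109 and 101 genes had an unadjusted p under 0.05. With limma-voom the count was also 0 in RPE cells, and with DESeq2 it was 1. The batch and the replicate block moved 2 of these counts. With the replicate block edgeR called 4 genes in RPE cells and 26 in mesenchymal cells. With the batch as a covariate it called 3 and 21, and limma-voom with the batch 5 and 35. Members entered the fits in 5, 6, 2, 3, 6 and 6 cases, in the same order, with a median log2 difference (ko/ko minus wt/wt) of 0.14, 0.08, -0.38, 0.16, -0.09 and -0.16, beside -0.01, -0.02, 0.03, -0.01, -0.01 and -0.02 over all genes tested. A genotype effect that differs between types was called for 4 of 6290 genes (0.0636%, interaction term), none of them a member (edgeR adjusted p of 0.695 for Cst3 and 1 for the other 5).

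In RPE cells Ptgds and Ttr were higher in every ko/ko than in every wt/wt retina, without passing the test over all genes. Ptgds was 54993 to 59659 CPM in wt/wt and 65745 to 78135 CPM in ko/ko retinas, values that did not overlap. Its log2 difference was 0.22 (SE 0.07, edgeR adjusted p = 0.808, and 0.0849 to 1.00 over 15 alternatives), where 0% of genes were called. Such a separation of 3 against 3 has an exact permutation p of 0.1. How many of the 308 genes tested in RPE cells were separated in this way was not counted. Ttr values did not overlap either (0.14, SE 0.09, edgeR adjusted p = 0.910), with the same limit. Those of Cst3 did overlap (0.16, SE 0.10, edgeR adjusted p = 0.910). Cst3 was higher in the ko/ko retina of each of the 3 same-numbered pairs, a pairing that is not established within batch 2. How many of the 308 genes had 1 direction in all pairs was not counted either. None of these 3 genes passed in RPE cells with the replicate block. Since the values of Ptgds and of Ttr do not overlap, the ko/ko values are by necessity also the higher ones within each batch. Enpp2 and Timp3 differed by -0.07 (SE 0.27) and -0.52 (SE 0.34), both with overlapping values. The 8 genes together took 16.4% ± 0.849 of RPE UMIs in wt/wt and 19.5% ± 0.889 in ko/ko retinas (SD, n = 3; exact permutation p = 0.1, the smallest that 3 against 3 allows). Other measures of these cells were compared as well, and those of the RPE, Müller and red blood cell lists and the cell number did not overlap between genotypes, while those of the rod and melanosome lists did. The RPE marker list was 24344 ± 2971 and 29270 ± 660 CPM (exact permutation p = 0.1, n = 3), the Müller list 22444 ± 4208 and 26588 ± 680 CPM (exact permutation p = 0.1), the rod list 7555 ± 1828 and 6374 ± 2272 CPM (exact permutation p = 0.5), the melanosome list 1279 ± 702 and 3039 ± 1509 CPM (exact permutation p = 0.2), the red blood cell list 68.5 ± 11.2 and 29.7 ± 25.7 CPM (exact permutation p = 0.1), and the cells numbered 24.3 ± 1.15 and 14.3 ± 3.79 per retina (exact permutation p = 0.1). Their part in the higher Ptgds and Ttr values was not tested.

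**Figure D3:**
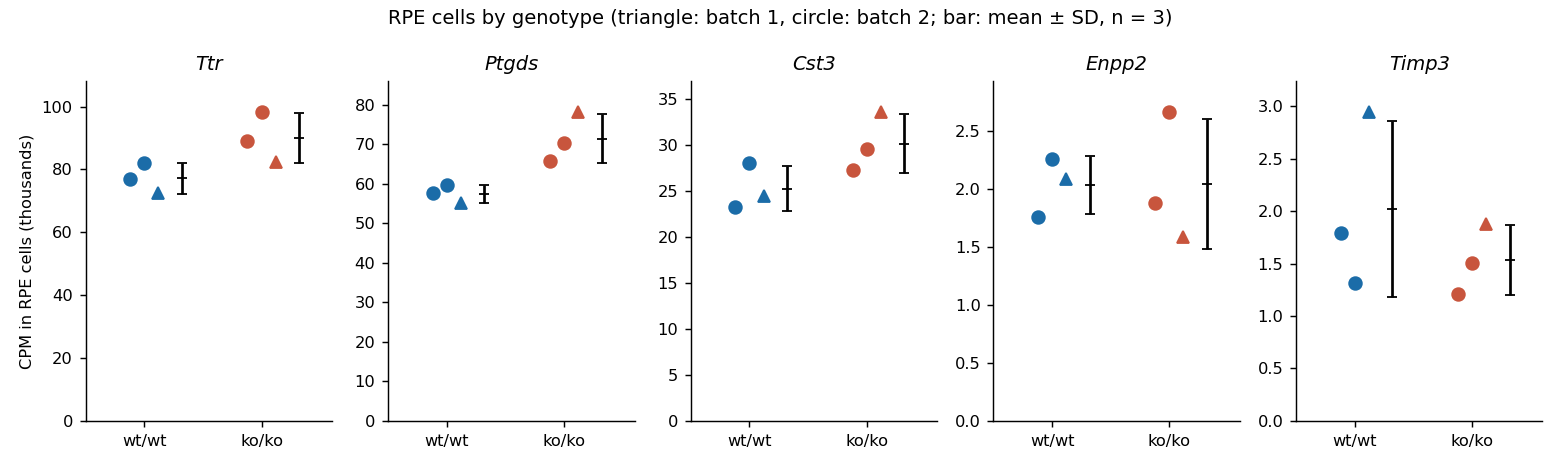
Level of Ttr, Ptgds, Cst3, Enpp2 and Timp3 in the RPE cells of each retina in CPM divided by 1000, wt/wt beside ko/ko, with triangles for batch 1, circles for batch 2 and bars for the mean and SD of 3 retinas. The 3 ko/ko points of Ptgds and Ttr lie above the 3 wt/wt points, and the genotypes overlap for the other 3 genes.

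In glia the genotypes overlapped for every member tested. Ptgds and Efemp1 were higher in the ko/ko retina of each of the 3 same-numbered pairs, a pairing that is not established within batch 2. Timp3, Cst3, Enpp2 and Ttr had no common direction over these pairs. How many of the 4130 genes tested in glia had 1 direction in all pairs was not counted, so this is a description only. Ptgds measured 225, 154 and 174 CPM in wt/wt and 241, 213 and 193 CPM in ko/ko glia (0.16, SE 0.26), Timp3 229, 234 and 327 against 235, 255 and 297 CPM (-0.05, SE 0.23) and Cst3 1253, 3012 and 2134 against 2359, 2436 and 1832 CPM (0.01, SE 0.31). Efemp1 differed by 0.15 (SE 0.25) and Enpp2 by -0.03 (SE 0.26). The edgeR adjusted p was 1.00 for each, and no member passed in glia with the replicate block either.

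The largest genotype difference among the members tested was that of Cst3 in mesenchymal cells. The class held 26593, 20256 and 18958 CPM in wt/wt and 10329, 15000 and 5817 CPM in ko/ko retinas, values that did not overlap (exact permutation p = 0.1). How many of the 1717 genes tested in this class were separated in this way was not counted. The log2 difference of Cst3 was -1.12 (SE 0.32, edgeR adjusted p = 0.470), where 0% of genes were called. With the replicate number as a block it was -1.21 with an edgeR adjusted p of 0.0290, where 1.51% of genes were called, and with the batch as a covariate -1.20 with an edgeR adjusted p of 0.0272, where 1.22% were. The makeup of the class moved in the same direction: cells led by microglia markers, in which Cst3 is high, were 51.3%, 49.0% and 35.1% of it in wt/wt and 17.5%, 30% and 19.4% in ko/ko retinas (45.1% ± 8.73 against 22.3% ± 6.75, SD, n = 3; exact permutation p = 0.1, the smallest possible). Within those cells Cst3 was 52062, 43750 and 56860 CPM in wt/wt and 43749, 46088 and 33974 CPM in ko/ko, overlapping values with a log2 ratio of means of -0.30 (exact permutation p = 0.2), against -1.08 for the whole class. In cells led by endothelial markers the means were 1712 ± 59.1 and 1866 ± 288 CPM (SD, n = 3; exact permutation p = 0.4). A lower share of such cells and less Cst3 RNA in each cannot be told apart from the class level alone.

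**Figure D4:**
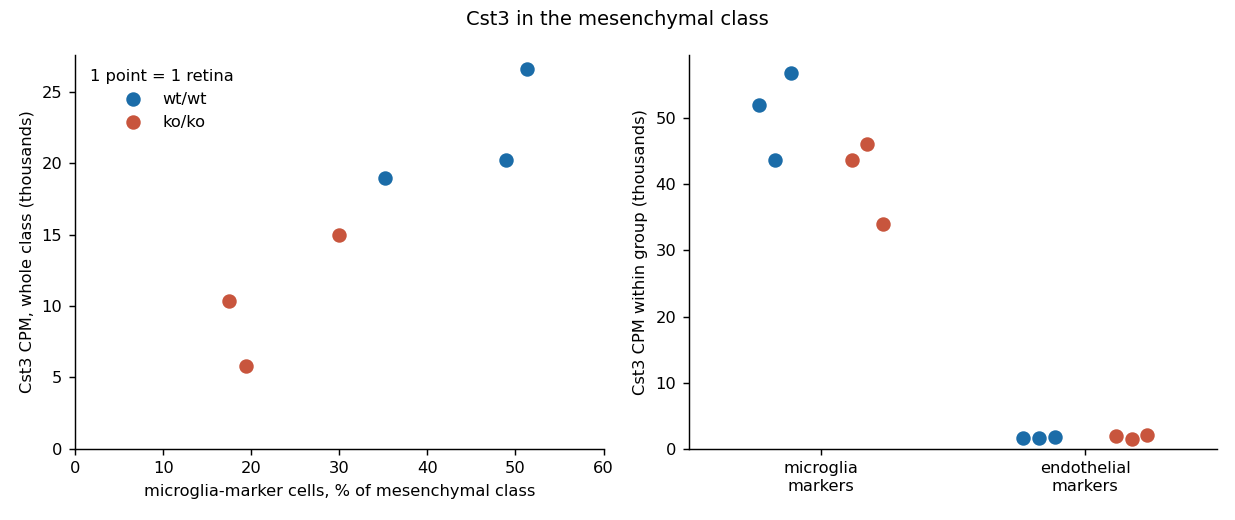
Left, Cst3 in CPM divided by 1000 in the whole mesenchymal class against the percentage of the class led by microglia markers; right, Cst3 in CPM divided by 1000 within cells led by microglia and by endothelial markers, with 1 point for each of 3 wt/wt and 3 ko/ko retinas. The class level and the percentage are lower in all ko/ko retinas, while the levels within either group of cells overlap.

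Known partners of the 8 proteins were read from a list of 55 genes, of which 54 were found and 53 had a UMI. Counts of partners highest in a type, as given below, include genes with few UMIs. The share of all genes highest in each type was not counted, so these counts are descriptions only. With all 6 retinas and no covariate, none was called between genotypes by edgeR in any type, among 6, 17, 18, 13, 21 and 32 tested in RPE cells, glia, mesenchymal cells, interneurons, photoreceptors and all cells, where 0% of all genes were called. Of the retinol carriers and receptors, 3 of 5 were highest in RPE cells, among them Lrat, which esterifies retinol, and Stra6, the receptor for the retinol-binding protein that Rbp4 encodes (568 ± 242 CPM, and 232 ± 89.6 in mesenchymal cells, SD, n = 6). Rlbp1, which binds retinal, was highest in glia at 4598 ± 694 CPM, and Rbp3, the interphotoreceptor retinoid carrier, in photoreceptors at 965 ± 346.

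The prostaglandin D group had 4 of 7 genes highest in mesenchymal cells, among them Ptgs1, which makes the precursor that Ptgds uses (199 ± 137 CPM), and Hpgds, the other prostaglandin D synthase (103 ± 65.1 CPM). That count also holds Ptgs2, with 2 UMIs in all, and Ptgdr2. The receptors Ptgdr and Ptgdr2 had 2 UMIs and 1 UMI in all. In the lysophosphatidic acid group, the phosphatase Plpp3, which degrades the product of autotaxin, was highest in glia (622 ± 151 CPM), and its relative Plpp1 (113 ± 30.3) and the receptor Lpar6 (159 ± 44.6) in mesenchymal cells. Of the cathepsins and legumain, proteases that cystatin C acts on in part, 5 of 8 were highest in mesenchymal cells, led by the cathepsin gene Ctss (3137 ± 1797 CPM) and by Lgmn, which encodes the asparaginyl endopeptidase legumain (1541 ± 745 CPM). Ctsd, which encodes an aspartic protease, was highest in RPE cells (2688 ± 464 CPM). Of the 18 partners tested in mesenchymal cells, 6 (Ctsd, Ctsz, Lgmn, Ctsb, Ctss and Ptgs1) had an unadjusted edgeR p under 0.05, beside 150 of all 1717 genes tested there, each lower in ko/ko with log2 differences from -0.80 to -1.46 and adjusted p from 0.470 to 0.515. With the replicate block edgeR called 4 of the 18 (Ctsz, Lgmn, Ctss and Ptgs1) and with the batch as a covariate 3 (Ctsz, Lgmn and Ctss), where 1.51% and 1.22% of all genes were called. Limma-voom with the batch called 5, these 4 and Ctsd, where 35 of all 1717 genes were called. Without ko/ko replicate 2 edgeR called Ctss. The share of microglia-marker cells given above moved with these partners, and its part was not tested.

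Receptors of pigment epithelium-derived factor were highest in mesenchymal cells in 4 of 5 cases, led by Plxdc2 (189 ± 84.5 CPM). Among proteases and relatives of Timp3, 7 of 12 were highest in glia, including Kdr, the growth factor receptor that Timp3 blocks (400 ± 79.7 CPM), Timp2 (270 ± 41.8) and the protease Adamts5 (146 ± 56.5). That count also holds Timp1 and Timp4, at only 0.636 and 3.77 CPM in glia. Of the 7 matrix relatives of Efemp1 with a UMI, 3 were highest in RPE cells and 3 in mesenchymal cells. The RPE count includes Fbln1, with 5 UMIs in all. The elastin gene Eln was highest in mesenchymal cells (80.7 ± 80.8 CPM) and the related fibulin Efemp2 in glia (66.8 ± 10.3).

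The genes whose levels followed each member most closely over the 30 sums of 5 types and 6 retinas were found among 3907 genes with a mean of at least 50 CPM, by Pearson's r of log2(CPM + 10). The sums share retinas and libraries, and genes of a single cell type have high values by that alone, so r is a description without a p. Ttr was followed by Slc16a8 (r = 0.995), Rpe65 (0.994) and Calml4 (0.993), and Ptgds by Arl6ip1 (0.982), Rgr (0.979) and Ociad2 (0.978). Enpp2 ran with Col18a1 (0.975), Rdh10 and Col9a3 (0.972 each), Timp3 with Crim1 (0.965), S100a1 (0.958) and Gm20425 (0.956), and Efemp1 with Il33 (0.975), Shisal2b (0.953) and Col9a1 (0.951). Cst3 had looser followers, among them Stra6 (0.889) and Vamp8 (0.887). Serpinf1 and Rbp4 had mean levels of 2.26 and 3.70 CPM, too few molecules for a pattern to be read.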

How the data were processed

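Single-cell libraries of 6 mouse retinas were made with the 10x Genomics 3′ v2 kit. The authors aligned reads to mm10 (GRCm38) with Cell Ranger 3.1.0, counting exonic reads, and deposited raw UMI counts per gene and cell, which are not normalized. A deposited table gives each cell's retina, genotype, batch and type. The authors made the types by Louvain clustering in Seurat, after integration over the batch. Filters on cells and removal of doublets are not given in the sources used here, and shared barcodes could not be counted from the cell names. All 46375 cells were used, 629 of them without a type. Scrublet marked 3 cells (0.00647%), too few to serve as a filter, so removal of the 5% of cells with the highest scores per retina was an alternative. Why so few were marked was not tested. Photoreceptor counts of each pair of libraries differed beyond sampling noise (chi-square per degree of freedom of 1.67 or more), so all 6 were kept as separate samples. Gene names are those of GENCODE M21.

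UMIs were summed per retina and type. Genotypes were compared with edgeR 4.0.16 (quasi-likelihood test, TMM, filterByExpr, Benjamini-Hochberg over all genes tested, called at an adjusted p under 0.05), and types with the retina as a block. Alternatives were limma 3.58.1 voom, DESeq2 1.42.0, RLE factors, no filter, the batch as a covariate, the replicate number as a block, stricter cells (at least 500 UMIs and at most 10% mitochondrial), the wt/wt retinas alone and each retina left out. Deviations of same-numbered retinas from their group means correlated over 13161 genes with r of 0.108, 0.597 and 0.693. Differently numbered retinas of batch 2 correlated at 0.545 and 0.168, both above the 0.108 of number 1. Pairing by number within batch 2 is therefore not established, and for replicate 3 number and batch cannot be told apart. The replicate block is given as an alternative beside the batch. RNA outside the RPE was tested with two-sided exact sign-flip permutation tests over 6 retinas. Shares of cells with a UMI were taken after thinning to 300 UMIs, which left 108 of 116 RPE cells, 921 of 942 glia, 242 of 246 mesenchymal cells, 2048 of 2083 interneurons and 28389 of 42359 photoreceptors. Cells were split by the marker list holding most of their UMIs, as a range of sums and not a type. In simulated counts with genes changed by 2 on the log2 scale, the genotype fit recovered 100% of 27 genes in RPE cells, 99.5% of 199 in glia and 99.4% of 162 in mesenchymal cells. The simulated retinas had a small fixed spread and no batch difference, and only well-counted genes were changed. The recovery therefore checks the fit and does not show that genes not called here were unchanged.

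The named genes are the 8 members, a fixed list of 55 partners (at most 3 named per group, those with the highest level, beside those given with a count), and the 3 genes most correlated with each member; a few of these are not reported here. Members and lists were chosen with earlier results of these data known. Intervals and limits of a count of 0 (3 counts of the total) cover counting error only. Versions were R 4.3.3, scanpy 1.11.5, scipy 1.17.1, pandas 2.3.3, numpy 2.4.6 and Python 3.11.15.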

Additional observations from a re-analysis of the deposited data

Results flagged for a closer look

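The 629 cells without a type entered no comparison between types, and 3 of the 8 genes had more UMIs in them than the limit of 3 counts that a count of 0 allows. They held 32 UMIs of Ptgds (84.4 CPM), 31 of Ttr (81.8 CPM) and 1470 of Cst3 (3878 CPM). In photoreceptors the pooled levels were 64.1, 76.0 and 3564 CPM. The groups of 3 retinas are too small for a test of single outlying samples.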

How the results depend on the processing

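Over the alternatives other than leaving out 1 retina, 237 fold changes of members between genotypes kept direction and side of the threshold, 9 changed sign and 3 newly passed (Cst3 in mesenchymal cells). Of the differences between neighbouring types 124 kept both, 7 changed sign, 9 newly passed and 4 no longer passed. Counts of genes called between genotypes changed in RPE cells from 0 to 1 with DESeq2, 3 with no filter, 3 when edgeR took the batch as a covariate, 5 when limma-voom did and 4 with the replicate block. In mesenchymal cells they changed from 0 to 28 with no filter, 21 and 35 with the batch in edgeR and limma-voom and 26 with the replicate block. The replicate block changed the call of no member but Cst3. With no filter 1 gene was called in interneurons, in photoreceptors and in all cells. No filter, by testing more genes, also gave 5096 calls for RPE against interneurons, 5932 for RPE against photoreceptors, 4934, 7530 and 9979 for glia against mesenchymal cells, interneurons and photoreceptors, 7266 and 8853 for mesenchymal cells against interneurons and photoreceptors, and 10231 for interneurons against photoreceptors. For RNA outside the RPE, the photoreceptor level as background gave 17 of 24 tests past the threshold, 14 above and 3 below, against 0 of 32, and the same level scaled by depth gave 0 of 24, with 8 above in all 6 retinas. At the smallest possible two-sided exact sign-flip permutation p of 0.03125 lay 17 of 24, 19 of 32 and 14 of 24 tests, in this order. Passing turned on these numbers of ties alone, so the 3 counts do not rank the backgrounds. The unscaled level also leaves the lower depth of photoreceptors in. With Rpe65 alone or the melanosome list as reference, 17 of 32 tests lay above expectation in all 6 retinas, against 11, and the expectation is 0 where a retina lacks the UMIs it is made from. Leaving out 1 retina at a time gave 0 to 2 calls in RPE cells (2 without wt/wt replicate 3) and 0 to 7 in mesenchymal cells (7 without ko/ko replicate 2). Small log2 differences between genotypes changed sign: Cst3 in glia to -0.000928 with no filter and -0.00786 with the batch in edgeR, Ttr in glia to -0.31 with limma-voom and -0.18 with the batch in it, Efemp1 in photoreceptors to 0.00123 (DESeq2), 0.00146 (RLE) and 0.000641 (no filter), and Ptgds and Ttr in all cells to 0.0239 and 0.000795 with stricter cells. Between types, with wt/wt retinas alone Ttr in glia minus interneurons was -0.16 and Cst3 in RPE minus mesenchymal cells -0.00339. Efemp1 in photoreceptors minus mesenchymal cells was -0.92 with limma-voom, -0.12 with stricter cells and -0.075 without the highest doublet scores, and in mesenchymal cells minus interneurons 1.57 and 0.20 with the first and last of these. With 1 retina left out these 2 ranged from -0.30 to 4.89 and from -5.10 to 0.71. Genotype differences that changed sign with 1 retina left out ranged as follows: Cst3 in glia -0.27 to 0.42, Efemp1 in all cells -0.66 to 0.47, in glia -0.032 to 0.42 and in photoreceptors -0.23 to 0.25, Enpp2 in RPE -0.30 to 0.12, in glia -0.21 to 0.16 and in photoreceptors -0.32 to 0.056, Ptgds in all cells -0.34 to 0.078 and in photoreceptors -0.33 to 0.022, Timp3 in glia -0.13 to 0.079 and in mesenchymal cells -0.56 to 1.02, and Ttr in all cells -0.45 to 0.15, in glia -0.49 to 0.65 and in photoreceptors -0.40 to 0.28. Where not named, the cause was not tested. Cst3 in mesenchymal cells ranged from -1.58 to -0.81, with adjusted p from 0.00444 to 0.998 over 15 alternatives. Few RPE cells limit the depth of RPE values to 17073 to 35968 UMIs per retina.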
